A study of Homo sapiens with 8 samples.

Results

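The short arm of human chromosome 17, 17p, held 651 of the 62780 regions at which dimethylated lysine 4 of histone H3 (H3K4me2) was called in RD cells. RD is an established rhabdomyosarcoma line, grown from a tumour with features of skeletal muscle. A region is a stretch of the hg19 build covered by at least 1 peak of 6 deposited lists, with peaks that overlapped by 1 bp or more merged. It was placed on 17p when its midpoint lay before position 22200000. Of the 651 regions, 183 lay in the band next to the centromere, 17p11.2, from 16000000 to the end of the arm at 22200000, and 468 lay in the rest of the arm. The band was chosen by a measured value: it held no gained region, defined below, when its libraries were compared. The comparison of both knockdown groups inside 17p11.2 is therefore given as a description without a test.

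The cells were transfected with an siRNA against LSD1 (construct s618, the siLSD1 group) or with a control siRNA (the siCtrl group). The medium was changed after 8 h and the cells were harvested after 96 h, at passages 10 to 15. Each group had 2 biological replicates with a ChIP library each, and the authors also deposited a list called on the pooled replicates of each group. All values come from 1 cell line and 1 siRNA construct, and the level of LSD1 itself was not measured in these files. The 4 input libraries, which would show DNA content without antibody, were not analysed here.

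H3K4me2 marks promoters and enhancers that are active or poised, and LSD1 (KDM1A) is an enzyme that removes methyl groups from this lysine. The number of reads that a ChIP library yields at a site depends on how much of the DNA there carries the mark and also on how many copies of that DNA the cell has. 17p is an arm prone to rearrangement in the germ line. Repeats within 17p11.2 recombine to give the deletion of Smith-Magenis syndrome and the duplication of Potocki-Lupski syndrome, both of which involve RAI1, a regulator of transcription. Duplication of PMP22, a myelin gene in 17p12, gives Charcot-Marie-Tooth disease type 1A, and deletions of 17p13.3 that take PAFAH1B1, a dynein regulator needed for neuronal migration, give lissencephaly. No region below is assigned to a gene, since no hg19 annotation was used here.

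The lists differed in length before any part of the genome was singled out. Over chromosomes 1 to 22 and X, 50587 and 49611 peaks were used for siLSD1 replicates 1 and 2, and 33878 and 44831 for siCtrl replicates 1 and 2. The pooled lists held 56860 peaks for siLSD1 and 45219 for siCtrl. The read depth of the libraries is unknown from these files, so no counting error can be attached to a single peak. siCtrl replicate 1 had the shortest list, and it stands apart in most counts that follow. A peak missing from it can reflect a shorter list as well as a lower signal, and these cannot be told apart.

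A region was called gained when it had a peak in both siLSD1 libraries and in neither siCtrl library. The reverse pattern was called lost, and a region with a peak in all 4 libraries was called common. Gained regions made up 6.37% of all regions of the genome, and lost regions 0.94%. In 17p11.2, 0 of 183 regions were gained. Elsewhere on 17p, 28 of 468 were gained, or 5.98% (exact 95% binomial interval 4.01% to 8.53%), close to the share in the genome. That interval covers counting error only, and neighbouring regions are not independent. By band the gained regions numbered 6 of 161 in 17p13.3 (3.73%), 8 of 115 in 17p13.2 (6.96%), 6 of 113 in 17p13.1 (5.31%) and 8 of 79 in 17p12 (10.1%). On the long arm, 134 of 2063 regions were gained (6.50%). A count of 0 was not confined to 17p11.2. Of the 463 cytobands of the genome with at least 50 regions and at least 20 common ones, 7 held no gained region, 17p11.2 included. Xq28, with 148 regions, was another of them. The zero count of 17p11.2 was the value that chose the band, so nothing is read from its distance to the genome's share.

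**Figure D1:**
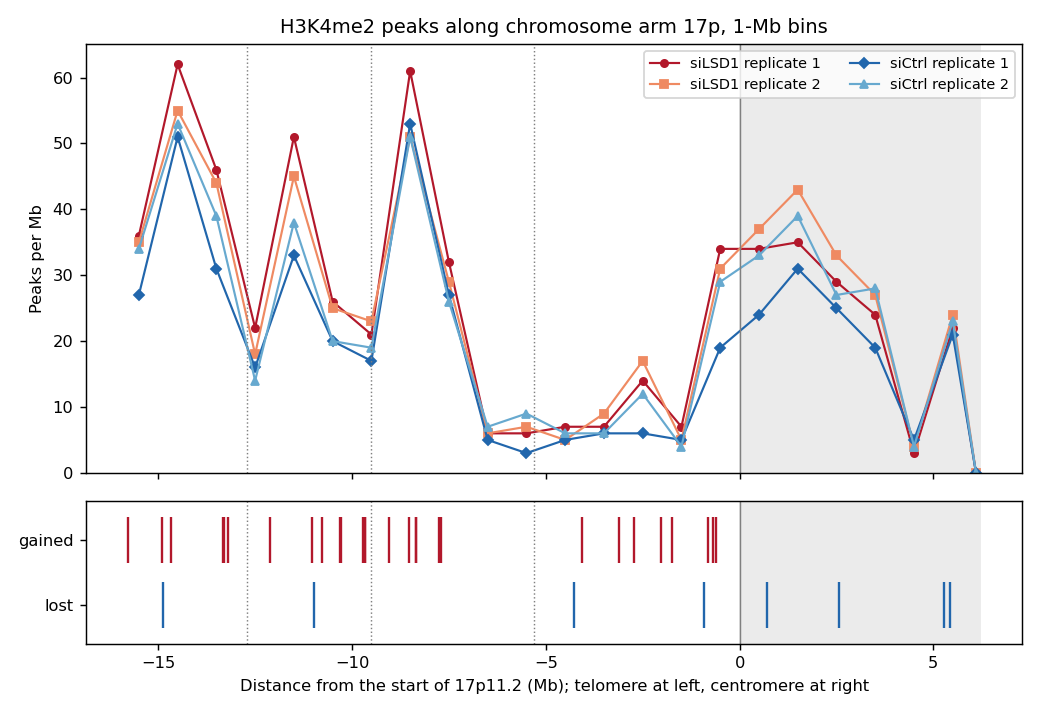
Peaks per Mb in 1-Mb bins of 17p in each of the 4 libraries (upper panel) and the positions of gained and lost regions (lower panel), against distance from the start of 17p11.2 in Mb. The shaded band is 17p11.2, dotted lines are the other band borders, and all 28 gained regions lie left of the shaded band while 4 of the 8 lost regions lie in it.

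The stretch without a gained region was longer than the band. It ran from the end of a gained region at 15384205 in 17p12 to the start of the next at 25533601 on the long arm, a distance of 10.1 Mb that includes the centromere. It held 203 consecutive regions, of which 17 preceded 17p11.2, 183 lay in it and 3 followed it. In the genome 1 stretch without a gained region held more regions, 248 on the X chromosome. The length of the stretch around 17p11.2 follows for the most part from the choice of the band and is given as a description.

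The 3 gained regions nearest to 17p11.2 lay in 17p12. At 15175796 to 15177289 in 17p12 the score was 135.91 and 255.04 in siLSD1 replicates 1 and 2, with no peak in either siCtrl library, and 381.37 in the pooled siLSD1 list. The score is the peak caller's own, with a minimum near 50 in every list, and this region had the highest pooled siLSD1 score among the 28. The next toward the centromere, 15308842 to 15310305, named for its place after its values were seen, scored 55.01 and 58.32 in siLSD1 and had no siCtrl peak. The last gained region before the band, 15381736 to 15384205, scored 88.83 and 114.99 in siLSD1 and had no peak in either siCtrl library. The pooled siCtrl list nevertheless had a peak there with a score of 74.09, as it did at 3 of the 28 gained regions. All 28 had a peak in the pooled siLSD1 list.

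Gained regions elsewhere on the arm were also of low score. The region 6330349 to 6331707 in 17p13.2 scored 172.82 and 89.43 in the siLSD1 libraries, and 11944302 to 11945618 in 17p12 scored 146.9 and 155.61. At 1325512 to 1328259 in 17p13.3 the scores were 83.72 and 288.25, and at 13265520 to 13266612 in 17p12 they were 113.43 and 120.83. Across the 28 the score lay between 50.48 and 288.25, with medians of 78.9 and 82.2 in siLSD1 replicates 1 and 2. Their median width was 1427 bp (983 to 2748 bp), against 3140 bp for the common regions of the rest of the arm.

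Of its 183 regions, 34 had no peak in either siCtrl library (18.6%), compared with 120 of 468 in the rest of the arm (25.6%) and 30.6% over all chromosomes. Of the 34, 21 had a peak in exactly 1 siLSD1 library, 7 in replicate 1 and 14 in replicate 2, and 13 appeared in a pooled list only. For the rest of the arm the same counts were 53, 23, 30 and 39, with a further 28 in both siLSD1 libraries. The lack of regions with both siLSD1 peaks is the count that chose the band, so nothing is read from it.

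The 3 highest-scoring regions with a peak in 1 siLSD1 library and no siCtrl library all had a peak in both pooled lists. At 18967297 to 18968514 siLSD1 replicate 2 scored 148.62 and the other 3 libraries had no peak, while the pooled lists scored 87.46 for siLSD1 and 128.65 for siCtrl. At 17613526 to 17615040 siLSD1 replicate 2 scored 133.64, against 165.63 and 87.19 in the pooled siLSD1 and pooled siCtrl lists. At 16924052 to 16925568 siLSD1 replicate 1 alone had a peak, with a score of 129.22, and the pooled lists scored 111.19 for siLSD1 and 65.74 for siCtrl.

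The band also held regions called in both siLSD1 libraries and in 1 siCtrl library, 17 of them with siCtrl replicate 2 (9.29%, beside 10.5% over all chromosomes) and 1 with siCtrl replicate 1 (0.546%, beside 0.792%). At 17861405 to 17864159 the scores were 195.3 and 301.04 in siLSD1 and 196.48 in siCtrl replicate 2. At 17823910 to 17826369 they were 166.5 and 218.34, against 127.3 in siCtrl replicate 2, and at 17641023 to 17643932 they were 73.87 and 320.35, against 214.16. None of the 3 had a peak in siCtrl replicate 1.

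**Figure D2:**
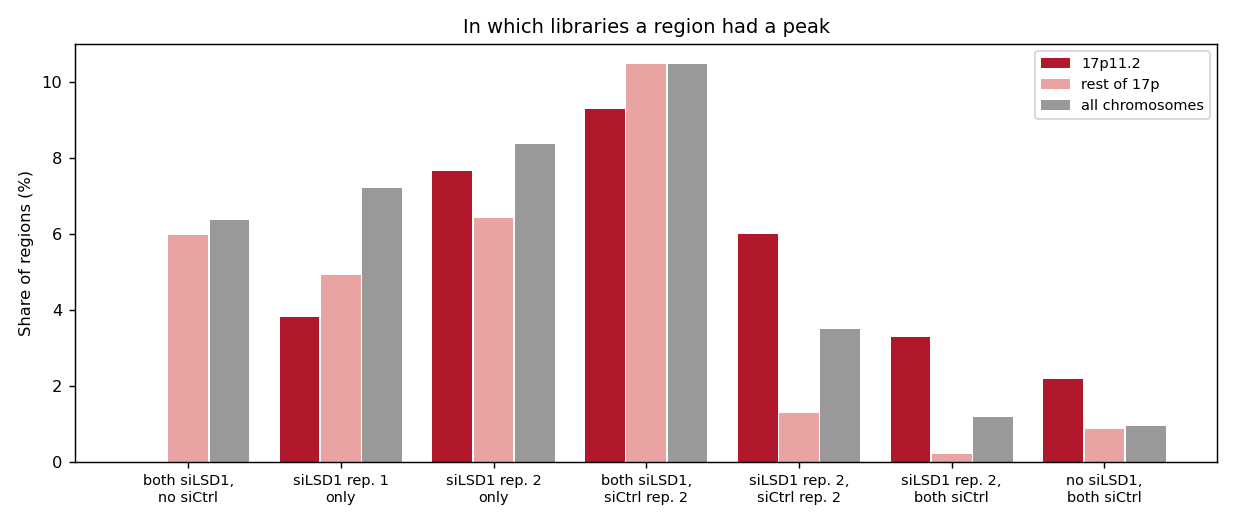
Share of regions (%) with a peak in the named libraries only, for 7 of the possible patterns, in 17p11.2, the rest of 17p and all chromosomes. The pattern of both siLSD1 libraries without siCtrl is at 0 in 17p11.2, and the patterns that lack siLSD1 replicate 1 but include both second replicates are more frequent there than in the rest of the arm.

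Some patterns without siLSD1 replicate 1 had higher shares in 17p11.2 than in the rest of the arm, whose shares of them were below those of the genome. A peak in siLSD1 replicate 2 and siCtrl replicate 2 only was found at 11 of 183 regions (6.01%), against 6 of 468 in the rest of the arm (1.28%) and 3.51% over all chromosomes. A peak in every library except siLSD1 replicate 1 was found at 6 regions of 17p11.2 (3.28%) and at 1 region of the rest of the arm (0.214%), beside 1.19% over all chromosomes. A peak in siLSD1 replicate 1 only was found at 7 regions of 17p11.2 (3.83%), at 23 of the rest of the arm (4.91%) and at 7.22% over all chromosomes. The part of single libraries in these counts was not tested.

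Lost regions were few on the whole arm, with 4 in 17p11.2 (2.19%) and 4 in the rest (0.855%), beside 0.94% in the genome. The lost region of highest pooled siCtrl score lay in 17p11.2 at 21273310 to 21274842, where siCtrl replicates 1 and 2 scored 54.31 and 259.76 and neither siLSD1 library had a peak. The other 3 in the band, named after their values were seen, scored lower. The siCtrl scores were 81.44 and 53.68 at 16710627 to 16711966, 55.54 and 54.17 at 18575369 to 18576326, and 56.96 and 69.99 at 21415890 to 21416505. At the second of these the pooled siLSD1 list had a peak with a score of 55.26. In the rest of the arm the lost regions 5023530 to 5025119, 11727128 to 11728226 and 15088304 to 15089281 scored 76.63 and 146.73, 56.67 and 106.86, and 54.61 and 82.52 in siCtrl replicates 1 and 2.

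That no region at all was gained in 17p11.2 depended on which lists were required and on their length. With both kinds of shorter list the band's share stayed below the genome's, as did that of the rest of the arm. These lists come from the same libraries that chose the band, so their shares are a description. With the rule applied to 3 libraries, 14 regions of the band and 58 of the rest were gained when siLSD1 replicate 1 was left out, and 7 and 51 when its second replicate was. Without siCtrl replicate 1 the counts were 1 and 30, and without siCtrl replicate 2 they were 17 and 77. A rule over 3 libraries is met more easily, and the genome's share under it is not given here. These counts therefore do not show how the band stood against the genome. When each library's list was shortened to its 33878 highest-scoring peaks, the length of the shortest, 1 of 137 regions of the band was gained (0.730%) and 8 of 327 in the rest of the arm (2.45%), beside 3.28% in the genome. Lost regions then numbered 6 in 17p11.2 (4.38%) and 14 in the rest (4.28%), beside 3.39%. When every list was cut to its upper 50% by score, 3 of 98 regions of 17p11.2 were gained (3.06%) and 11 of 239 in the rest (4.60%), beside 6.33% in the genome. Lost regions then numbered 3 in the band (3.06%) and 2 in the rest (0.837%), beside 0.682%. The regions of the band gained under these shorter lists, named after their values were seen, all had an siCtrl peak in the full lists. The 1 under equal lengths, 17578926 to 17580475, scored 121.05 and 204.36 in siLSD1 and 60.76 in siCtrl replicate 2. Of the 3 in the upper 50%, 1 was 17861405 to 17864159, described above. At 16309383 to 16312133 the scores were 361.62 and 316.07 in siLSD1, against 104.9 and 248.48 in siCtrl. At 18621442 to 18624009 they were 180.81 and 225.42 in siLSD1, against 128.57 and 170.1 in siCtrl.

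In the pooled lists the band was not without siLSD1-only regions. Of its 166 regions with a pooled siLSD1 peak, 25 had none in the pooled siCtrl list (15.1%), compared with 98 of 428 in the rest of the arm (22.9%) and 27.7% over all chromosomes. In the opposite direction, 12 of 153 regions of 17p11.2 with a pooled siCtrl peak had no pooled siLSD1 peak (7.84%), compared with 24 of 354 in the rest (6.78%) and 9.07% over all chromosomes.

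Peak density did not set 17p11.2 apart from the remaining arm as a whole. The band held 147 and 168 peaks in siLSD1 replicates 1 and 2, and 125 and 154 in siCtrl replicates 1 and 2. Over its 6.2 Mb that is 23.7 and 27.1 peaks per Mb in siLSD1, and 20.2 and 24.8 in siCtrl. The other 16 Mb of the arm had 27.4 and 25.3 peaks per Mb in siLSD1, and 20.3 and 22.9 in siCtrl. The ratio of the band to the rest was 0.866 and 1.07 in siLSD1, and 0.996 and 1.08 in siCtrl. It averaged 0.968 ± 0.145 in siLSD1 and 1.04 ± 0.0617 in siCtrl (SD, n = 2 each). In the pooled lists it was 1.01 for siLSD1 and 1.11 for siCtrl. The lowest ratio was that of siLSD1 replicate 1.

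The covered length gave a lower ratio, and peaks in the band were narrower. Peaks covered 37.7 and 47.7 kb per Mb of 17p11.2 in the siLSD1 replicates, and 32.7 and 46.6 kb per Mb in the siCtrl replicates. Outside the band they covered 54.7 and 57.8 kb per Mb in siLSD1, and 44.3 and 54.2 kb per Mb in siCtrl. The ratio was 0.690 and 0.826 in siLSD1, and 0.738 and 0.859 in siCtrl, so it was below 1 in all 4 libraries, and the groups overlapped. Median peak width in 17p11.2 was 1352 and 1461 bp in siLSD1, and 1384 and 1568 bp in siCtrl. In the rest of the arm it was 1625.5 and 1765 bp in siLSD1, and 1864.5 and 1845 bp in siCtrl.

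The rest of the arm was itself uneven, and its nearest band had the fewest peaks. 17p12, from the border of 17p11.2 toward the telomere, had 70 and 68 peaks over 5.3 Mb in siLSD1, and 42 and 58 in siCtrl. 17p13.1 had 27.1 and 24.5 peaks per Mb in siLSD1, and 22.9 and 24.3 in siCtrl. 17p13.3 had the most, with 43.6 and 40.6 in siLSD1 and 33.0 and 38.2 in siCtrl. In the pooled lists it had 46.4 for siLSD1 and 39.1 for siCtrl, compared with 18.7 for siLSD1 and 14.9 for siCtrl over all chromosomes. Set against 17p12 alone, 17p11.2 had 1.80 and 2.11 times as many peaks per Mb in siLSD1, and 2.54 and 2.27 times as many in siCtrl. The ratio to the rest of the arm is therefore an average over bands above and below 17p11.2. In 1-Mb bins the density rose before the border: the last bin of 17p12 held 34 and 31 peaks in siLSD1, and 19 and 29 in siCtrl, and the first bin of 17p11.2 held 34 and 37 in siLSD1, and 24 and 33 in siCtrl. The bin before both, from 14 to 15 Mb, held 7 and 5 in siLSD1, and 5 and 4 in siCtrl.

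Long stretches without any region lay in 17p12 and also at the edge of 17p13.3, the band with the most peaks per Mb. The 3 longest on the arm were 685 kb from 11042208 to 11727127 in 17p12, 506 kb from 2953706 to 3460024 across the border of 17p13.3 and 17p13.2, and 443 kb from 12125155 to 12568125 in 17p12. Of the 100-kb windows of 17p11.2, 12 of 62 held no region (19.4%), compared with 38 of 160 in the rest of the arm (23.8%) and 21 of 53 in 17p12 (39.6%). Inside 17p11.2 the regions were concentrated toward 17p12: the first 3 Mb held 41, 50 and 29 regions, the next held 29, the one from 20 to 21 Mb held 5, and the one after it held 29. The last region of the arm, 21982215 to 21983209, had a peak of score 53.20 in siLSD1 replicate 2 alone. The next one along the chromosome, 25288754 to 25290678 on the long arm, was outside the limit and was common to all 4 libraries.

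The strength of the marked regions was compared by the rank of their scores, because the scores of different lists are not on a common scale. Each region's score was expressed as a percentile over all peaks of the same list, and the percentiles were averaged over common regions. There were 99 common regions in 17p11.2 (54.1% of its regions) and 245 in the rest of the arm (52.4%). The mean percentile in 17p11.2 was 56.3 and 61.4 in siLSD1, and 50.8 and 62.9 in siCtrl. In the rest of the arm it was 70.8 and 71.6 in siLSD1, and 61.3 and 70.5 in siCtrl. The band minus the rest came to -14.5 and -10.2 points in siLSD1, and to -10.5 and -7.60 points in siCtrl. In the pooled lists it was -8.86 points for siLSD1 and -6.55 for siCtrl. The difference averaged -12.3 ± 3.07 points in siLSD1 and -9.04 ± 2.04 points in siCtrl (SD, n = 2 each). The 17p11.2 regions thus ranked lower in each of the 6 lists, in control cells as well as in siLSD1 cells, and the groups overlapped.

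**Figure D3:**
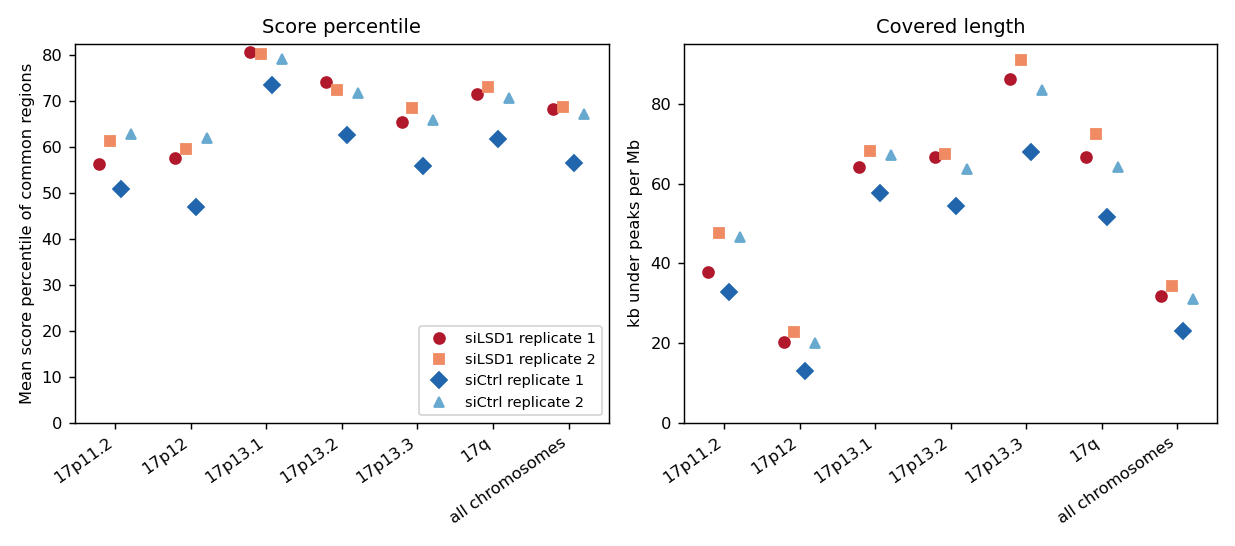
Mean score percentile of common regions (left) and kb under peaks per Mb (right) in the bands of 17p, on 17q and over all chromosomes, with 1 point for each of the 4 libraries. In both panels 17p11.2 and 17p12 lie below 17p13.1, 17p13.2 and 17p13.3 in each library, and siCtrl replicate 1 is lowest throughout.

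Lower rank was shared by 17p12 and did not begin at the border of 17p11.2. The mean percentile of the 33 common regions of 17p12 was 57.7 and 59.6 in siLSD1, and 47.1 and 62.1 in siCtrl, close to the values of 17p11.2 in every library. In 17p13.1 it was 80.8 and 80.4 in siLSD1, and 73.6 and 79.1 in siCtrl. In 17p13.2 it was 74.3 and 72.5 in siLSD1, and 62.7 and 71.8 in siCtrl, and in 17p13.3 it was 65.5 and 68.5 in siLSD1, and 56.0 and 65.8 in siCtrl.

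The step at each band border was compared with all 311 pairs of neighbouring cytobands on the same arm that had at least 20 common regions each. The median absolute step, averaged over the 4 libraries, was 4.82 points, and its 90% quantile was 11.4 points. From 17p13.1 to 17p12 the mean percentile changed by -21.9 points, and 0 of the 311 pairs had a larger step. From 17p12 to 17p11.2 it changed by 1.25 points, and 263 pairs had a larger one. By library this last step was -1.38 and 1.84 in siLSD1, and 3.77 and 0.759 in siCtrl, so it did not keep 1 sign. The steps from 17p13.3 to 17p13.2 and from 17p13.2 to 17p13.1 were 6.37 and 8.14 points. The largest of the 4 steps along the arm therefore lay between 17p13.1 and 17p12, on the telomere side of the stretch without gained regions. Copy number was not measured, and a change in it and a change in the share of marked DNA per copy cannot be told apart from these scores.

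Single regions on either side of the border differed in both directions, and so few of them do not measure the step. The last pair of common regions before 17p11.2 were 15868191 to 15871330, with scores of 165.59 and 311.48 in siLSD1 and 63.51 and 401.88 in siCtrl, and 15901407 to 15905313, with 446.17 and 401.45 in siLSD1 and 216.34 and 1103.09 in siCtrl. The first pair inside were 16115991 to 16122242, with 545.3 and 964.83 in siLSD1 and 275.56 and 810.34 in siCtrl, and 16157900 to 16159933, with 159.48 and 311.96 in siLSD1 and 54.51 and 203.71 in siCtrl. Each pair held 1 weaker and 1 stronger region, and the stronger one inside the band outscored the stronger one outside in 3 of the 4 libraries.

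In every library the highest score of a common region in 17p11.2 was below that of each other band of 17p. It was 1244.79 and 1663.39 in siLSD1, and 1117.11 and 2868.17 in siCtrl. The highest region of 17p11.2 in the pooled siLSD1 list, 17683550 to 17688746, scored 1145.96 and 1528.5 in siLSD1, and 825.9 and 2868.17 in siCtrl. Some regions named below in 17p13.2 and 17p13.3 scored lower than it in siCtrl. The second, 16186873 to 16192155, scored 947.93 and 1663.39 in siLSD1, and 642.56 and 1656.1 in siCtrl. The broadest common region of the band spanned 6425 bp, from 18085127 to 18091551, and scored 715.34 and 871.6 in siLSD1, and 529.07 and 2302.48 in siCtrl.

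In 17p13.1 the broadest common region of the arm, 8019915 to 8033749, spanned 13835 bp and reached the ceiling score of 3100 in all 6 lists. A second region of that band, 7736204 to 7749359, scored 2236.59 and 3233.06 in siLSD1, and 2416.02 and 3100 in siCtrl. The third, 6913547 to 6919809, scored 1439.52 and 2033.2 in siLSD1, and 1548.25 and 2853.23 in siCtrl. In 17p12, which ranked as low as 17p11.2 on average, 14199876 to 14210285 still scored 2785.44 and 3100 in siLSD1, and 876.88 and 3100 in siCtrl. Its second, 15162351 to 15167666, scored 1184.43 and 2562.95 in siLSD1, and 1201.57 and 3100 in siCtrl.

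The bands nearer the telomere had strong regions of the same order. In 17p13.2, 4847870 to 4857438 scored 2179.19 and 3100 in siLSD1, and 1712.13 and 3100 in siCtrl, and 4400125 to 4404205 scored 1649.66 and 1717.76 in siLSD1, and 512.29 and 2606.97 in siCtrl. The broadest of that band, 5972012 to 5984476, scored 900.19 and 1585.65 in siLSD1, and 1141.55 and 1813.77 in siCtrl. In 17p13.3, 1530584 to 1534554 scored 1069.04 and 3100 in siLSD1, and 1295.41 and 2757.17 in siCtrl. There, 1162082 to 1164514 scored 1293.6 and 1665.49 in siLSD1, and 373.45 and 2015.54 in siCtrl, and the broadest region, 2294260 to 2306631, scored 964.94 and 2056.06 in siLSD1, and 475.99 and 3165.23 in siCtrl.

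Scores at or above 3100, where many peaks share the same value, were rare over the whole genome. Among the common regions of all chromosomes, 0.214% and 0.843% reached this score in siLSD1, and 0.0725% and 3.40% in siCtrl. None of its 99 common regions reached this score in any of the 4 libraries, and 1 did in the pooled siCtrl list. Among the 245 common regions of the rest of the arm, 1 and 6 reached it in siLSD1, and 1 and 15 in siCtrl. The median score of the common regions of 17p11.2 was 227 and 312 in siLSD1, and 173 and 530 in siCtrl, compared with 401 and 586 in siLSD1, and 263 and 847 in siCtrl, in the rest of the arm. The lower quartile in 17p11.2 was 137 and 211 in siLSD1, and 110.1 and 291 in siCtrl. Common regions of 17p11.2 were also narrower, with a median width of 2313 bp, against 3140 bp in the rest of the arm, 2231 bp in 17p12 and 3047 bp over all chromosomes.

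Whether the score ranks of 17p11.2 differed between siLSD1 and siCtrl depended on the scale. On the percentile over all peaks the band averaged 58.9 ± 3.61 in siLSD1 and 56.8 ± 8.52 in siCtrl (SD, n = 2 each), 2.01 points higher in siLSD1. The rest of the arm averaged 71.2 ± 0.539 in siLSD1 and 65.9 ± 6.48 in siCtrl, 5.29 points higher in siLSD1. Over all chromosomes the common regions were 6.66 points higher in siLSD1, since the same regions take a larger part of a shorter list. Both parts of the arm were therefore below the shift of the whole genome. With equal numbers of peaks the difference turned to -7.59 points in 17p11.2 and to -1.62 points in the rest of the arm. In the full lists the libraries of both groups overlapped in 17p11.2, with siCtrl replicate 2 above both siLSD1 libraries.

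A rank within the 26225 common regions alone, added after the values were seen, is taken over the same regions in every list. On this scale the mean rank in 17p11.2 was 34.2 and 38.8 in siLSD1, and 43.2 and 42.3 in siCtrl. Both siLSD1 libraries lay below both siCtrl libraries, with means of 36.5 ± 3.27 in siLSD1 and 42.8 ± 0.633 in siCtrl, a difference of -6.27 points. The difference was -3.96 without siLSD1 replicate 1 and -8.58 without siLSD1 replicate 2, so siLSD1 replicate 1 carried the larger share of it. Without siCtrl replicate 1 it was -5.82, and without siCtrl replicate 2 it was -6.72. In the rest of the arm the mean rank was 53.7 and 54.7 in siLSD1, and 55.3 and 54.6 in siCtrl, a difference of -0.752 points with overlapping groups. In 17p12 it was 38.8 and 39.3 in siLSD1, and 40.3 and 42.8 in siCtrl. The difference there was -2.46 points, and the groups did not overlap in that band either. On 17q the difference was 0.218 points, with overlapping groups.

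**Figure D4:**
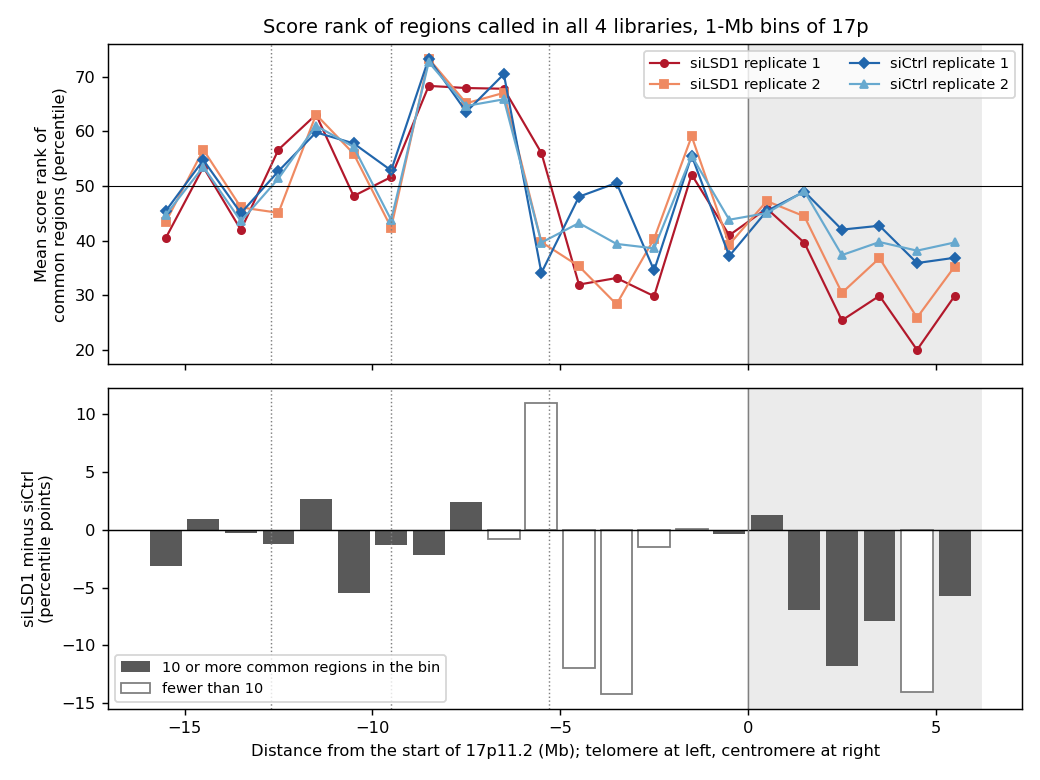
Mean rank of the scores of common regions among all common regions (percentile) in 1-Mb bins of 17p for the 4 libraries (upper panel), and the siLSD1 minus siCtrl difference in percentile points (lower panel), against distance from the start of 17p11.2 in Mb. The shaded band is 17p11.2; the first bin in it is at 1.32 points and the next 5 are below 0, and open bars mark bins with fewer than 10 common regions.

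The lower siLSD1 rank was not seen in the first Mb of the band. In the last Mb of 17p12, from 15 to 16 Mb, the difference was -0.371 points over 16 common regions. In the first Mb of 17p11.2, from 16 to 17 Mb, it was 1.32 points over 21 common regions. From 17 to 22.2 Mb, a division made after the bins were seen, it was -8.31 points over 78 regions. The mean ranks there were 31.0 and 36.5 in siLSD1, and 42.6 and 41.6 in siCtrl, and the difference without siLSD1 replicate 1 was -5.56. The last gained region before the band ended at 15.4 Mb. Each bin rests on few regions, so the bins do not locate where the rank difference began. Elsewhere on the arm the difference was -5.43 points over 12 common regions from 5 to 6 Mb, close to the -5.70 over 18 regions in the last bin of 17p11.2 that held any. The other bins of the band after 17 Mb had larger differences. They were -6.97 over 21 common regions from 17 to 18 Mb, -11.7 over 19 from 18 to 19 Mb and -7.88 over 17 from 19 to 20 Mb. From 20 to 21 Mb the difference was -14.1 over 3. Outside the band, larger values rested on few common regions. They were -12.0 over 2 from 11 to 12 Mb, -14.2 over 5 from 12 to 13 Mb and 11.0 over 2 from 10 to 11 Mb.

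Single regions were spread around these means. Of the 99 common regions of 17p11.2, both siLSD1 libraries ranked below both siCtrl libraries at 37 (37.4%) and above both at 7 (7.07%). Outside the band they ranked below at 43 of 245 (17.6%) and above at 41 (16.7%). Over all chromosomes 19.3% of common regions ranked lower in siLSD1 without overlap and 19.1% higher. The count in the rest of the arm was near the genome's in both directions. The measure comes from the same libraries and the same contrast as the count of gained regions that chose the band, so the 37 regions are no independent evidence of a difference.

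The width of the common regions was compared in the same way. Both siLSD1 libraries covered more of the region than both siCtrl libraries at 19 of 99 in 17p11.2 (19.2%) and less at 8 (8.08%). Outside the band they covered more at 71 of 245 (29.0%) and less at 32, and over all chromosomes 30.6% were broader and 9.56% narrower in siLSD1. Broader regions thus outnumbered narrower ones in siLSD1 in 17p11.2 as well, but their share there was below that of all chromosomes. This difference in share was not tested.

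**Figure D5:**
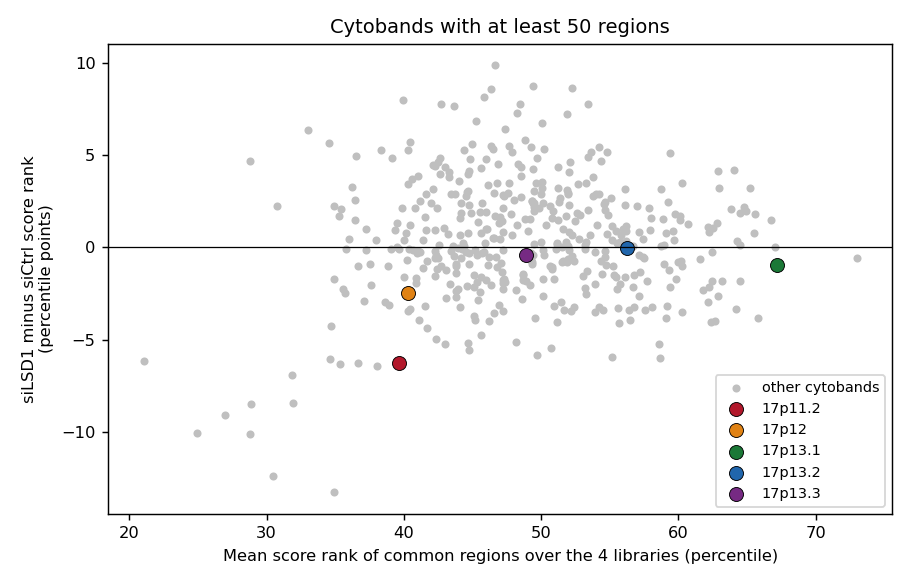
Difference in mean score rank, siLSD1 minus siCtrl, against mean rank over the 4 libraries for the 463 cytobands with at least 50 regions and at least 20 common ones, 1 point per band. 17p11.2 lies at -6.27 points and 17p12 at -2.46, both among bands of low mean rank, and 17p13.1 is near the right edge with a difference of -0.975.

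Among the 463 cytobands, 10 had a lower siLSD1 minus siCtrl difference in rank than 17p11.2. On the X chromosome these were Xp11.22, Xp11.23, Xp11.4, Xp22.2, Xq24, Xq26.3 and Xq28. The others were 13q14.11, 6p25.2 and 2q23.3. Gained regions were few in those on X, from 0 of 148 in Xq28 to 2 of 87 in Xp11.4, beside 6.37% in the genome. The median over bands was 0.256 points, with 5% of bands below -4.95 and 5% above 5.44. 17p12 had 74 bands below it, 17p13.1 had 144, 17p13.3 had 180 and 17p13.2 had 212. In mean rank over the 4 libraries, 46 bands were lower than 17p11.2 and 54 lower than 17p12, while 461 were lower than 17p13.1. All 10 bands with a lower difference than 17p11.2 also had a lower mean rank.

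Outside the chosen band, the number of peaks and their covered length were tested between the groups, though 2 libraries against 2 cannot give an exact two-sided p below 0.33. This part is what remained of the arm once a band without gained regions was taken out, so it is not independent of that choice. The rest of 17p held 438 and 405 peaks in siLSD1, and 324 and 367 in siCtrl. The means were 421.5 ± 23.3 in siLSD1 and 345.5 ± 30.4 in siCtrl (SD, n = 2 each), a difference of 76 peaks without overlap (exact permutation test, two-sided, p = 0.33). The covered length was 899.9 ± 35.1 kb in siLSD1 and 789 ± 112 kb in siCtrl, a difference of 111 kb (exact permutation test, two-sided, p = 0.33). With equal numbers of peaks the differences were -8 peaks and 12.6 kb. In the full lists the siLSD1 mean over the siCtrl mean was 1.22 for peaks and 1.14 for covered length. Over all chromosomes it was 1.27 and 1.23, also without overlap of the groups, so the difference was not particular to the arm.

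In 17p11.2 the corresponding means, given without a test, were 157.5 ± 14.8 peaks in siLSD1 and 139.5 ± 20.5 in siCtrl, and 265 ± 43.8 kb in siLSD1 and 246 ± 60.7 kb in siCtrl. The libraries overlapped here, because siLSD1 replicate 1 had fewer peaks than siCtrl replicate 2. Their ratio was 0.955 in 17p11.2, against 1.19 in the rest of the arm and 1.13 over all chromosomes. Among the bands of the rest, the mean number of peaks was higher in siLSD1 in each, with 69 ± 1.41 in siLSD1 and 50 ± 11.3 in siCtrl in 17p12, and 105 ± 7.07 in siLSD1 and 79 ± 2.83 in siCtrl in 17p13.2.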

How the data were processed

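Per the labels, chromatin of RD cells was sonicated and precipitated with an antibody against H3K4me2. Per the submitters' processing notes, reads were aligned with Bowtie to hg19. Peak names in the files carry the name of the caller MACS, and its version, its settings and its use of the input libraries are not stated. The deposited score of each peak, written by the authors' caller, has no stated scale, so lists were compared by ranks within each list. Scores of single regions are printed as deposited and differ in scale between lists, and a log2 score centred within each list was an alternative. How the authors pooled replicates is not stated.

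Peaks of 4 library lists and 2 pooled lists on chromosomes 1 to 22 and X were merged by 1 bp of overlap (pandas 2.3.3, numpy 2.4.6). A region's score in a list is that of its highest peak there. Band borders are the hg19 cytobands in the R package circlize 0.4.16. Gene names given as background were checked for their order along chromosome 17 in a RefSeq table of another build, whose coordinates were not used. The interval given for a share is an exact Clopper-Pearson interval at 95% (scipy 1.17.1). Tests are exact two-sided permutation tests over the 4 libraries, by full enumeration. The replicates are called biological by the submitters, and whether equal numbers mark a shared day is not stated. The merging and counting steps were tested on simulated lists.

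Regions named were, per band, the pair of highest pooled siLSD1 score and the broadest common one, the 6 gained regions and the 4 lost regions of highest pooled score, the 3 highest of each of the mixed patterns in 17p11.2, those next to its border, and the 3 longest empty stretches. The regions, the band and these rules were chosen with earlier results of these data known. Alternatives were shorter lists, other merging distances, regions of 2000 to 4000 bp only, log2 scores, other parts of the arm, each replicate left out and a replicate block.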

Additional observations from a re-analysis of the deposited data

How the results depend on the processing

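Read depth is unknown and each group has 2 libraries, so the exact permutation test used cannot go below 0.33, and a single library decides several counts. The values follow, 17p11.2 over or minus the rest of 17p, siLSD1 before siCtrl. With the upper 50% of each list, the ratio of peaks per Mb was 0.814 and 0.863 and that of covered length 0.661 and 0.685, with 3 gained regions in 17p11.2, 11 in the rest and 2 lost in the rest, and 0 of the 6 named gained regions were still gained. With equal numbers of peaks, the percentile difference in siLSD1 was -17.0, and siLSD1 minus siCtrl was -7.59 in 17p11.2 and -1.62 in the rest. The difference in peaks outside 17p11.2 reversed to -8, and 1 region of 17p11.2 and 8 of the rest were gained, with 14 lost in the rest. Merging across gaps of up to 1000 bp gave 1 gained region in 17p11.2 and 26 in the rest. The genome's share under that merging is not given. Regions 2000 to 4000 bp wide gave a percentile difference of -11.1 in siCtrl. On the log2 score, which has another scale, siLSD1 minus siCtrl was -0.23 in 17p11.2 and -0.046 in the rest, of opposite sign to the percentile over all peaks. Without 17p13.3 in the rest, the peak ratio was 1.15 and 1.25, the covered ratio 0.892 and 0.928, and the siCtrl percentile difference -11.7. Against 17p13.3 alone, they were 0.605 and 0.630, 0.480 and 0.520, and -8.14 and -4.08. Against 17p13.2 the peak ratio was 0.778 and 0.910 and the covered ratio 0.637 and 0.667. Against 17p13.1 the siCtrl peak ratio was 0.952, the covered ratio 0.643 and 0.630, and the percentile difference -21.7 and -19.5. Against 17p12 the values were 1.95 and 2.41, 1.98 and 2.42, and 0.231 and 2.27. Ranked among common regions, an alternative chosen after seeing the data, the difference was -17.7 and -12.2. With each replicate left out in turn, gained regions numbered 1 to 17 in 17p11.2 and 30 to 77 in the rest. Lost regions numbered 4 to 11 and 5 to 17, and the genome's shares under that rule are not given. The percentile difference then lay between -10.4 and -4.96 in siCtrl, and siLSD1 minus siCtrl in 17p11.2 between -3.27 and 7.90. With the replicate number as a replicate block, the differences outside 17p11.2 stayed 76 peaks and 111 kb, with an exact permutation p of 0.5, the smallest that 2 pairs allow.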
